A study of Mus musculus with 4 samples.

Results

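The genes described here move cholesterol out of macrophages or answer to the liver X receptors (LXRs): Abca1, Abcg1, Nr1h2, Nr1h3, Mylip, Apoe, Srebf1 and Srebf2. Every accessible region that the authors named by one of these 8 genes was taken, which gave 38 of 80929 regions, and the genes are 8 of 26614 gene names. The assay was ATAC-seq, which reads where a transposase can reach and cut the DNA, and the cells were RAW264.7, a macrophage line of the mouse. The titles put 2 libraries in the group Gel and 2 in the group CuNZ@Gel, from cells kept for 48 h. No genotype change or further agent is given for either group, and the labels do not say what Gel or CuNZ@Gel consists of. One treatment text, identical for all 4 libraries, names CuNZ@Gel alone, so what the Gel cells were given is unclear. Nothing says that the replicates were separate cultures, so p-values here rest on a spread between libraries that may be only technical.

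Macrophages take up lipoproteins and dead cells and cannot break down the sterol ring, so surplus cholesterol must be stored as ester or exported. Oxysterols made from the surplus bind the LXRs, which sit on DNA with a retinoid X receptor partner and switch on the exporters, the acceptor apolipoprotein E, the ubiquitin ligase MYLIP and the lipogenic factor SREBF1. SREBF2 works the other way: it is freed when sterol is scarce and drives cholesterol synthesis and uptake. Accessibility is not expression, and the region values say only how open the DNA was.

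For orientation, 250 bases upstream of the RefSeq start sites were taken from a promoter table on build GRCm38.p6. It held 7 of the 8 genes in 12 sequences, some of which overlap within a gene, such as those of Nr1h3. Abcg1 had no sequence there and was not searched. The files' regions are on build GRCm39, so no region was placed on these windows. The following 3 sequences are shown because the first pair are the only member promoters with an LXR-type direct repeat and the last belongs to the gene whose strongest region fell most. The repeat searched was AGGTCA, any 4 bases, AGGTCA, on both strands, with up to 3 mismatches in the 12 set bases, and capitals mark it in the first pair (minus strand of the gene, 3 mismatches each). In Mylip, capitals mark the CCAAT boxes (CCAAT, here as its complement) and the GC box (GGGCGG).
Abca1, chr4:53159896-53160145, minus strand: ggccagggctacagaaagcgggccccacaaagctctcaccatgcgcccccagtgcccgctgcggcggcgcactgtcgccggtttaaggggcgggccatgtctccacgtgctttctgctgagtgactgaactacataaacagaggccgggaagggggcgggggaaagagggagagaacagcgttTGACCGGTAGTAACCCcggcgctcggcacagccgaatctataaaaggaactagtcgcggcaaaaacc
Srebf1, chr11:60210472-60210721, minus strand: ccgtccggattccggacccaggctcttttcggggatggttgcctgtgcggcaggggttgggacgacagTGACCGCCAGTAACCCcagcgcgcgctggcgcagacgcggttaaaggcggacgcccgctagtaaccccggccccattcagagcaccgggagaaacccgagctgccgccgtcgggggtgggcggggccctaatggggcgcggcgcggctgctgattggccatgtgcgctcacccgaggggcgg
Mylip, chr13:45389492-45389741, plus strand: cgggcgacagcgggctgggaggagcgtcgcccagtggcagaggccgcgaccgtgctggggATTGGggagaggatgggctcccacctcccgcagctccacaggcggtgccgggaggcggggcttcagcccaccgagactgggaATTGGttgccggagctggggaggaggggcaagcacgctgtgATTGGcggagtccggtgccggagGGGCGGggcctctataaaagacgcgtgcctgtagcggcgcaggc
The repeat lay 67 to 52 bases upstream of the Abca1 start and 182 to 167 bases upstream of the Srebf1 start. It was held by 2 of 12 member sequences and by 18.5% of 32851 promoters, so a match of this quality is common. The SREBP element TCACNCCAC (1.05% of all promoters), the PU.1 motif GAGGAAGT (2.44%) and the AP-1 motif TGANTCA (6.75%) were in 0 member sequences. The E-box CACGTG was in 1, that of Abca1 (6.02% of all). CCAAT boxes were in 4 member sequences from 3 genes (33.8% of all) and GC boxes in 5 from 4 genes (32.7% of all). No matches of different motifs overlapped. These are descriptions of letters in short windows.

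The deposited values are log2(RPM + 1), where RPM is the reads in a region per 1000000 scaled reads of its library. Reads that fell in regions numbered 18843465 and 17914812 in Gel but 7440951 and 10236665 in CuNZ@Gel, and each library had 42612 to 61757 peaks. The deposited RPM equal those on totals of reads in regions divided by 0.910 and 0.902 in Gel and by 1.108 and 1.099 in CuNZ@Gel. Against scaling to equal totals, CuNZ@Gel values thus stand lower relative to Gel in every region. A change is the mean of CuNZ@Gel less that of Gel in these log2 units, in which low values change less than their RPM, and a call means an adjusted p under 0.05 from limma with Benjamini-Hochberg adjustment over all 77014 regions or 25900 genes tested. The change fell with the level over the whole table: with the tested regions ranked by level into 10 equal classes, class 10 (the highest) had a median change of -0.60 and classes 1 to 8 together had 0.11. Calls are therefore given also after that trend was removed (cyclic loess), and in places on a scale set by an inferred background. That background was not counted between peaks but inferred from the spacing of low fold enrichments in each library's peak list. Of low folds, 34.6% and 31.3% fitted the spacing in Gel and 6.85% and 8.91% in CuNZ@Gel. This scale therefore rests on a smaller share of low folds in CuNZ@Gel. On the background scale the median of all genes moved to -1.06, with 75.5% of genes lower and 2.77% higher. All 14 housekeeping genes with a region were lower on the deposited scale (median -0.75), where 36.1% of all genes were lower and 20.5% higher. With the trend removed 5 were lower and 1 was higher, against 15.4% and 20.7% of all genes. The marker sums that follow are in deposited RPM and carry the library factors given above. All 10 macrophage markers had a region, and their summed RPM was 1260 and 1271 in Gel and 1005 and 1023 in CuNZ@Gel. Fibroblast markers, 6 of 10 with a region (none for Col1a2, Dcn, Lum and Thy1), summed to 56.3 and 55.2 in Gel and 70.9 and 69.1 in CuNZ@Gel. Lymphocyte and epithelial markers, 7 of 11 with a region (none for Cd3g, Cd79a, Krt5 and Krt14), summed to 28.3 and 27.9 in Gel and 40.9 and 33.9 in CuNZ@Gel. On the deposited scale 1 of 10 macrophage markers was called higher and 6 lower (median change -0.27). Of the 6 fibroblast markers 3 were higher and 0 lower there (median 0.53). Of the 7 lymphocyte and epithelial markers 1 was higher and 1 lower (median 0.21). With the trend removed, 4 of 10 macrophage markers were called higher and 0 lower (median change 0.12), against 20.7% and 15.4% of all genes. Of the 6 fibroblast markers 2 were then higher and 0 lower (median 0.39). Of the 7 lymphocyte and epithelial markers 0 were higher and 1 lower (median -0.10). The part of cell makeup or depth in the results was not tested, and fewer cells with a region open cannot be told apart from less opening per cell.

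Summed over its regions, Abca1 fell most among the 8 genes and Mylip nearly as much. Of the 8 genes, 6 were called lower, 0 higher and 2 were not called, against 36.1% of all genes called lower and 20.5% higher. Their median change was -0.30 and that of all genes -0.10. In all 8 genes both CuNZ@Gel libraries lay below both Gel libraries. The groups did not overlap in 76.9% of all 25900 genes tested, with 11901 lower and 8009 higher in CuNZ@Gel. For Apoe the gap was very small, from 22.46 RPM in Gel 1 to 22.43 RPM in CuNZ@Gel 1. Once the trend was removed, 1 gene was lower, 2 were higher and 5 were not called (15.4% and 20.7% of all genes called lower and higher), and the member median was then 0.06, against -0.02 for all genes. Abca1 was called lower under each of 19 alternative settings, with changes from -1.71 to -0.22.

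**Figure D1:**
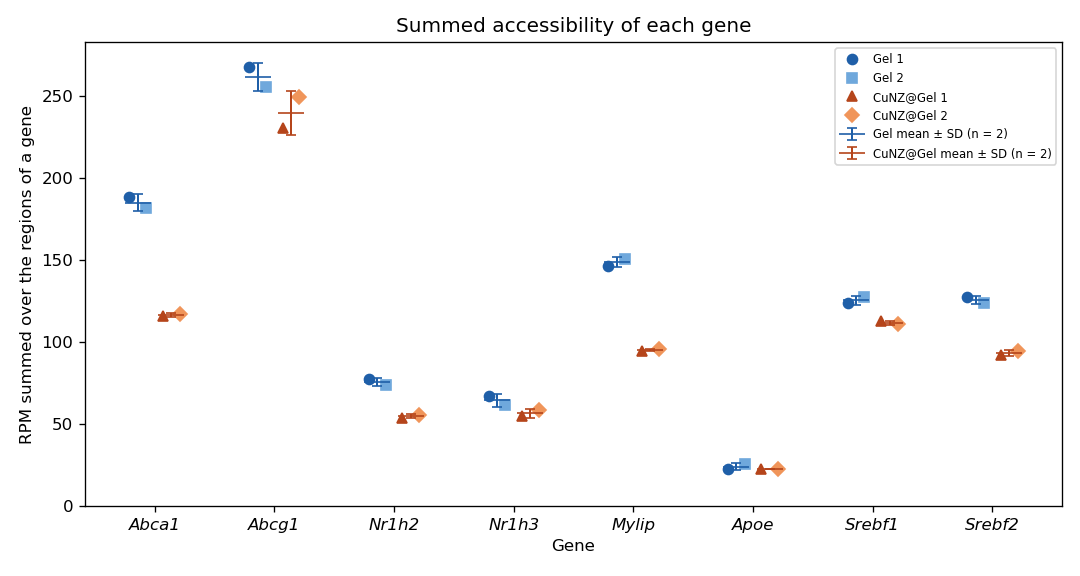
RPM summed over the regions of each gene (y axis) for the 8 genes (x axis), with a point for each library and bars for the group mean ± SD (n = 2). Abca1 separates widely between groups (185 against 116 RPM), while the Apoe groups nearly touch (23.9 against 22.4 RPM).

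At the level of single regions, 3 of the 37 tested were called higher, 15 lower and 19 not at all, beside 21.2% higher and 21.9% lower among all regions. The median change was -0.22, against 0.00 for all regions to 2 decimals. The groups did not overlap in 26 of 37 regions, which is 70.3% against 68.3% of all regions, with 22 lower and 4 higher in CuNZ@Gel. Among all 77014 regions tested, 26655 were lower and 25958 higher in this sense. Read against their level, 70% of the 10 member regions in class 10 were lower, against 86.9% of all regions there, and 10% were higher, against 2.91%. Of the 7 in class 9, 57.1% were lower against 55.8%, and 0% were higher against 12.1%. In classes 1 to 8, 4 of 20 member regions were lower (20% against 9.53%) and 2 were higher (10% against 24.6%). After removal of the trend, 6 member regions were higher and 8 lower (18.8% and 13.8% of all). On the background scale 34 were lower and 0 higher (60.6% and 4.85% of all).

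**Figure D2:**
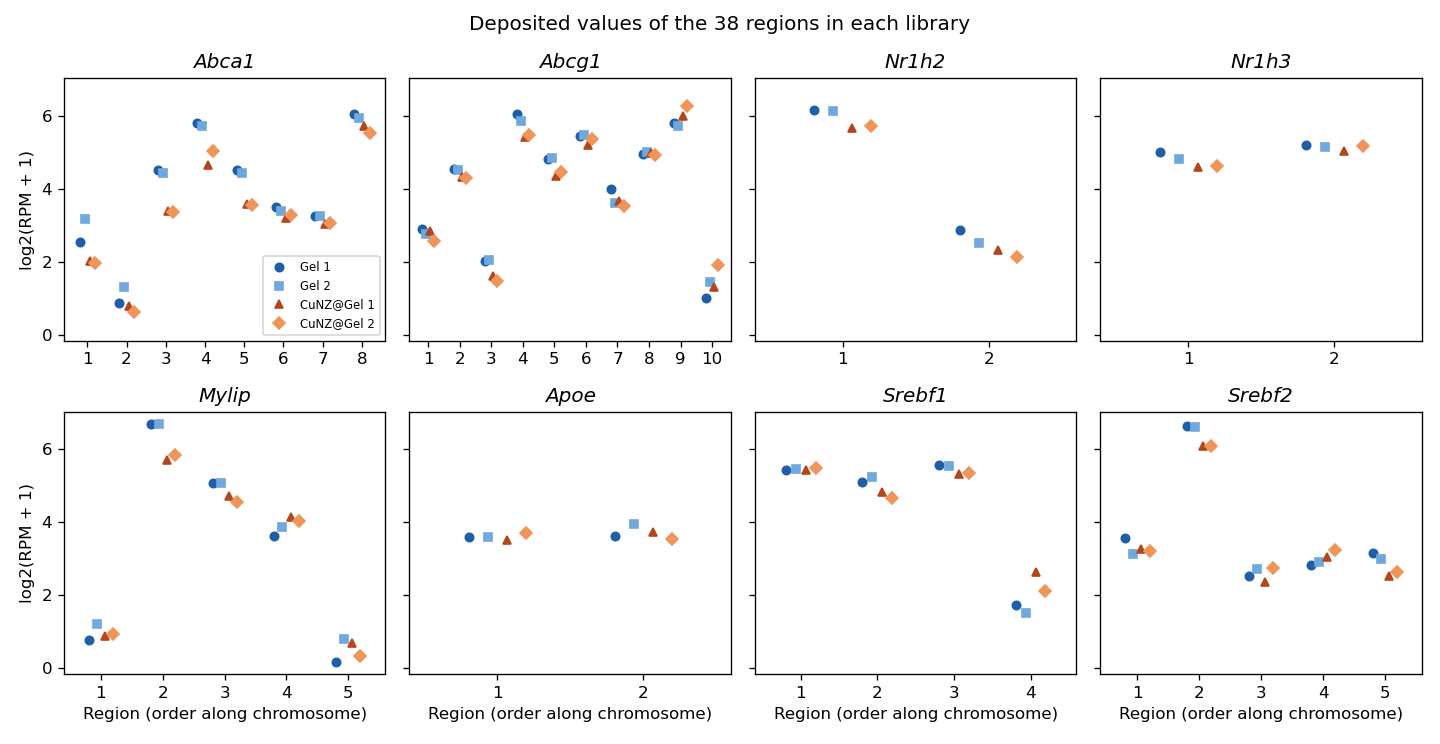
Deposited log2(RPM + 1) value (y axis) of each of the 38 regions in order along its chromosome (x axis), with a point for each library. In Abca1 regions 3 to 5 and Mylip region 2 the CuNZ@Gel points sit clearly below the Gel points, and in Abcg1 region 9 they sit above.

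**Figure D3:**
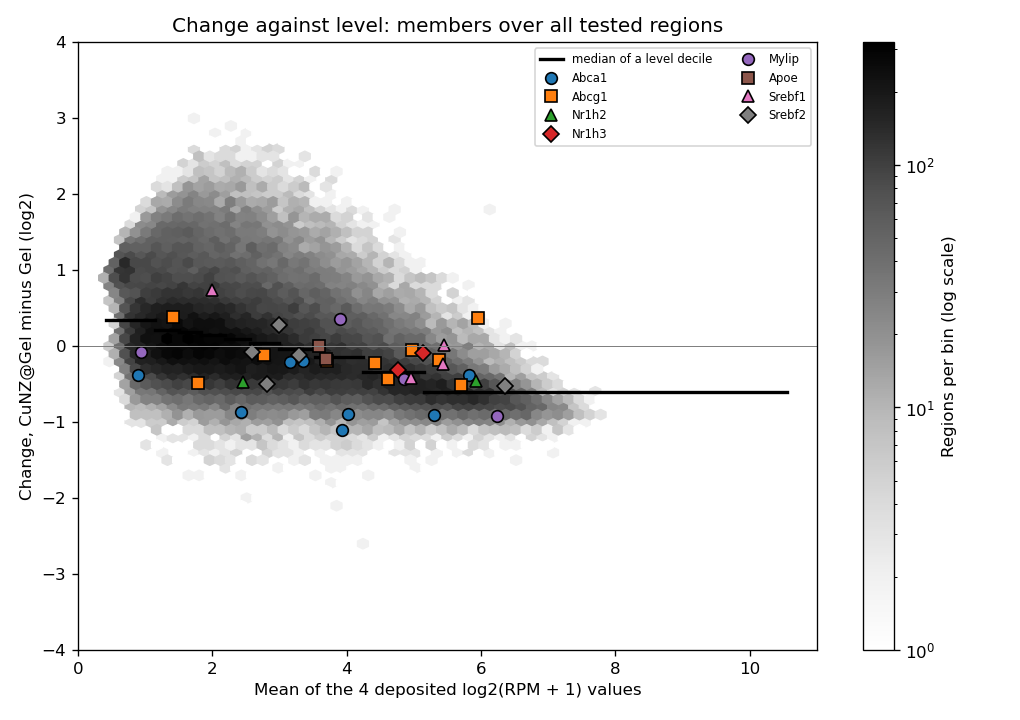
Change in log2(RPM + 1), CuNZ@Gel minus Gel (y axis), against the mean of the 4 deposited values (x axis), for all tested regions (grey bins, log colour scale), the median of each level class (black bars) and the 37 member regions (coloured). Abcg1 region 9, at a change of 0.37, lies far above the median of -0.60 at its level.

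A further measure set each region against the summed RPM of the other regions of its gene, as log2((region + 0.5)/(rest + 0.5)). The scaling of a library cancels in this ratio except for the added 0.5, which matters in weak regions. The trend with level does not cancel. The measure was added after the data had been seen. Its p-values were adjusted over the 68075 regions that could be tested this way, and its shares of all regions refer to these. It was first tested with the spread modelled on the ratio itself, which called 2 member regions higher and 1 lower (16% and 10.2% of all regions). After those calls had been seen, the spread was modelled on the region's level instead, and this called 5 higher and 4 lower of 37 (19.4% and 15.6% of all). The 3 regions called both ways were Mylip region 2 (lower), Mylip region 4 (higher) and Srebf2 region 4 (higher). The other 6 calls rest on the second choice of spread and are given below with both adjusted p-values. Computed from trend-removed values with the spread modelled on the level, the measure called 4 member regions higher and 7 lower (14% and 13.5% of all), and of the 9 calls above it kept those of Abca1 regions 3 and 8, Mylip region 4 and Abcg1 region 9. Mylip region 4 was thus the one region called in all 3 versions. The calls on trend-removed values included both regions of Nr1h2 (0.79 and -0.79), which are the same ratio seen from either side. Their limma adjusted p nonetheless differed, at 0.00208 and 0.042, because the spread was modelled on the level of the tested region alone. A p-value with the spread modelled on the level thus depends on the side tested, and such calls are given as description.

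Abca1 encodes the transporter that loads cholesterol and phospholipid onto lipid-poor apolipoprotein A1. Its sum was 189 and 182 RPM in Gel and 116 and 117 RPM in CuNZ@Gel, or 185 ± 4.96 against 116 ± 0.994 (SD, n = 2). Both CuNZ@Gel libraries lay below both Gel libraries, and the change was -0.66 ± 0.05 (SE; limma adjusted p = 2.91e-09). The change with the trend removed was -0.32 (adjusted p = 2e-05).

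Of the 8 Abca1 regions, numbered by rising coordinate, regions 1, 3, 4, 5 and 8 fell and the other 3 were not called. Region 3 (chr4:53115929-53116183, GRCm39) had 22 and 20.7 RPM in Gel and 9.46 and 9.33 RPM in CuNZ@Gel. Its change of -1.11 ± 0.14 (SE; adjusted p = 9.84e-09) was the largest fall among the member regions, and the authors listed a peak there in both Gel libraries (folds 6.77 and 6.11) and in 0 of 2 CuNZ@Gel libraries. It was -0.99 after trend removal (adjusted p = 1.6e-08). Region 4 (chr4:53119991-53120949), the second strongest of the gene, had 54.4, 51.9, 24.2 and 31.9 RPM in Gel 1, Gel 2, CuNZ@Gel 1 and CuNZ@Gel 2. It fell by 0.91 ± 0.11 (adjusted p = 4.94e-10), and by 0.48 with the trend removed (adjusted p = 8.56e-05). Region 5 (chr4:53121713-53122140) went from 21.8 and 20.4 RPM to 11 and 10.8 RPM, a change of -0.89 ± 0.14 (adjusted p = 7.32e-07), and was -0.75 with the trend removed (adjusted p = 8.65e-06). Regions 3, 4 and 5 were called lower under each of 16 alternative settings. Region 1 (chr4:53108141-53108598) was weaker, at 4.84 and 7.98 RPM against 3.03 and 2.93 RPM, a change of -0.86 ± 0.23 (adjusted p = 0.00185). It was -1.0 after trend removal (adjusted p = 0.00025). Without Gel replicate 2, its highest library, it was -0.55 and not called.

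The strongest Abca1 region, region 8 (chr4:53158692-53160196), had 65.9 and 60.9 RPM in Gel and 51.9 and 45.5 RPM in CuNZ@Gel, a change of -0.38 ± 0.09 (adjusted p = 0.000388). Trend removal left it at 0.17 (adjusted p = 0.122). It held 34.9% and 33.6% of the gene's RPM in Gel and 44.8% and 38.8% in CuNZ@Gel. Against the rest of the gene it was higher by 0.46 (adjusted p = 0.0283), and region 3 was lower at -0.54 (adjusted p = 0.0281). Neither passed with the spread modelled on the ratio (adjusted p = 0.15 for region 8 and 0.0848 for region 3), and both passed on trend-removed values (0.81 and -0.79). Regions 6 and 7 held 7.16 to 10.3 RPM, with changes of -0.20 and -0.21 that were not called.

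Abcg1 encodes the transporter that exports cholesterol to mature lipoprotein particles. The gene held 10 regions and the highest sum of the 8 genes, 268 and 256 RPM in Gel and 230 and 249 RPM in CuNZ@Gel. The change was -0.13 ± 0.05 (limma adjusted p = 0.0236), with both CuNZ@Gel libraries below both Gel libraries. This call did not survive leaving out Gel replicate 1 (-0.09) or CuNZ@Gel replicate 1 (-0.07). It was also lost with median-of-ratios factors (-0.12, limma adjusted p = 0.0769) and with the mean log2 over regions (-0.14, limma adjusted p = 0.208). The sum was instead higher after trend removal, at 0.29 (adjusted p = 9.1e-06), so its direction depends on the scaling.

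Opposite changes lay inside the Abcg1 sum. Region 9 (chr17:31292847-31294970), 2124 bases wide and the broadest member region, had 54.7 and 52 RPM in Gel and 62.6 and 76.2 RPM in CuNZ@Gel. It rose by 0.37 ± 0.09 (adjusted p = 0.000494), and by 0.94 with the trend removed (adjusted p = 3e-17). Its share of the gene went from 20.4% and 20.3% in Gel to 27.2% and 30.6% in CuNZ@Gel. It was called higher under 15 of 16 alternatives, and the exception was the background scale, where it was lower at -0.68. Relative to the other Abcg1 regions it was higher by 0.66 (adjusted p = 0.00259), but not past the threshold with the spread modelled on the ratio (adjusted p = 0.0523). On trend-removed values that relative change was 0.89 (adjusted p = 0.000572).

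Region 4 (chr17:31257170-31257924), the strongest Abcg1 region in Gel, fell from 65 and 57.6 RPM to 41.8 and 43.7 RPM, a change of -0.51 ± 0.09 (adjusted p = 5.82e-06). Its trend-removed change was 0.02, and its change relative to the rest of the gene was -0.48 (adjusted p = 0.0139, and 0.102 with the spread modelled on the ratio). The relative change was -0.34 and not called on trend-removed values (adjusted p = 0.0785). Its neighbour region 5 (chr17:31258546-31259124) had 27.4, 27.6, 19.5 and 20.9 RPM in the same library order and changed by -0.43 ± 0.12 (adjusted p = 0.00268), or -0.15 with the trend removed. The 7 others were not called. Regions 6 and 8 were -0.18 and -0.05 and became 0.27 (adjusted p = 0.0284) and 0.31 (adjusted p = 0.0213) with the trend removed. Region 3 became -0.69 (adjusted p = 0.0382).

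**Figure D4:**
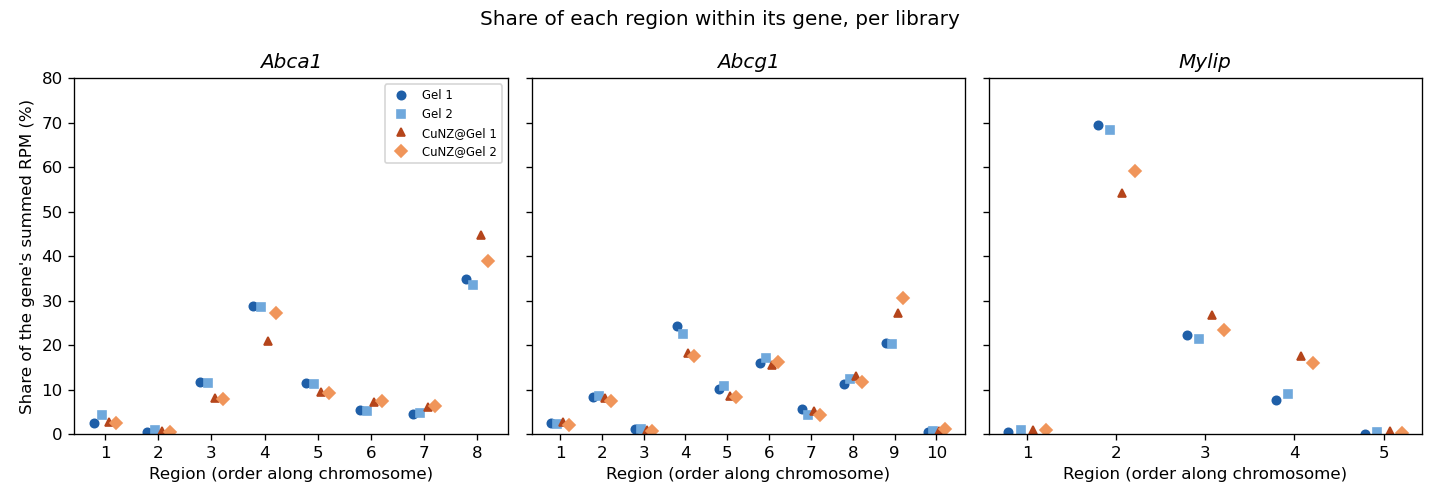
Share of each gene's summed RPM (y axis, percent) held by each region in order along the chromosome (x axis) for Abca1, Abcg1 and Mylip, with a point for each library. Abcg1 region 9 and Mylip region 4 have larger shares in both CuNZ@Gel libraries, and Mylip region 2 a smaller share.

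Apoe encodes the apolipoprotein that macrophages secrete as an acceptor of exported cholesterol. It had the lowest sum of the genes, 22.5 and 25.4 RPM in Gel and 22.4 and 22.4 RPM in CuNZ@Gel. The change of -0.09 ± 0.12 did not pass (adjusted p = 0.552), and was -0.04 with the trend removed. Region 1 (chr7:19433463-19433953) held 11.1, 11.1, 10.3 and 11.9 RPM, with overlapping groups. Region 2 (chr7:19434619-19435418) held 11.4, 14.3, 12.1 and 10.5 RPM, again overlapping, with a change of -0.16 (adjusted p = 0.439). A p above the threshold does not show that Apoe accessibility was equal in both groups.

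Of the receptors, Nr1h2 encodes LXR-beta, found in most tissues, and Nr1h3 encodes LXR-alpha, found mainly in liver, gut, fat and macrophages. The Nr1h2 sum was 77.3 and 74.1 RPM in Gel and 53.8 and 55.5 RPM in CuNZ@Gel, a change of -0.46 ± 0.07 (adjusted p = 2.34e-05) that was 0.06 with the trend removed (adjusted p = 0.556). Nearly all of it lay in region 1 (chr7:44202574-44203992), which fell from 71 and 69.3 RPM to 49.8 and 52.2 RPM (-0.45 ± 0.08, adjusted p = 1.02e-05) and stood at 0.12 with the trend removed. Region 2 (chr7:44210349-44210747), at 3.38 to 6.3 RPM, was -0.47 and not called (adjusted p = 0.0852). After trend removal it was lower, at -0.60 (adjusted p = 0.0293).

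The Nr1h3 sum was 67.4 and 61.6 RPM in Gel and 54.7 and 58.4 RPM in CuNZ@Gel. Its change of -0.19 ± 0.08 missed the threshold (adjusted p = 0.0508), passed without CuNZ@Gel replicate 2 (-0.23, adjusted p = 0.038) and was 0.17 with the trend removed (adjusted p = 0.09). Region 1 (chr2:91024899-91025695) had 31.3 and 27.1 RPM in Gel and 23.2 and 23.5 RPM in CuNZ@Gel. It was called lower (-0.31 ± 0.12, adjusted p = 0.0264), but not without Gel replicate 1 (-0.21) or CuNZ@Gel replicate 1 (-0.30). After trend removal no change was left (-0.003, adjusted p = 0.988). Region 2 (chr2:91026734-91027549) held 36.1, 34.5, 31.5 and 34.9 RPM with overlapping groups (-0.09, adjusted p = 0.546), and was 0.31 with the trend removed (adjusted p = 0.0168). A call in one receptor gene and none in the other is not a tested difference between them.

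Mylip encodes a ubiquitin ligase, also called IDOL, through which LXRs limit the uptake of lipoprotein. Its sum was 147 and 151 RPM in Gel and 94.8 and 95.6 RPM in CuNZ@Gel, a change of -0.64 ± 0.06 (adjusted p = 1.33e-08). After trend removal on the region values it was -0.14 (adjusted p = 0.0511), and after trend removal on the gene sums themselves -0.22 (adjusted p = 0.0027).

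The Mylip regions also moved apart. Region 2 (chr13:45542884-45543689) had 102 and 103 RPM in Gel and 51.4 and 56.6 RPM in CuNZ@Gel, a change of -0.91 ± 0.08 (adjusted p = 4.93e-14). It was called lower under each of 16 alternatives, with -0.27 when the trend was removed (adjusted p = 0.00442). Its share of the gene was 69.5% and 68.3% in Gel and 54.2% and 59.2% in CuNZ@Gel, and its change relative to the rest was -0.75 (adjusted p = 0.00121). On trend-removed values the relative change was -0.34 and not called (adjusted p = 0.087). Region 3 (chr13:45544784-45545788) had 32.6 and 32.4 RPM against 25.3 and 22.5 RPM (-0.43 ± 0.11, adjusted p = 0.00144) and was -0.10 with the trend removed. Region 4 (chr13:45550605-45551844) went the other way, with 11.2 and 13.4 RPM in Gel and 16.6 and 15.4 RPM in CuNZ@Gel. It rose by 0.36 ± 0.15 (adjusted p = 0.0464), a call lost without Gel replicate 1 (0.23), Gel replicate 2 (0.48) or CuNZ@Gel replicate 1 (0.30). It was 0.46 after trend removal (adjusted p = 0.0105), but on the background scale it was called lower, at -0.63 (adjusted p = 0.0271). Its share of 7.64% and 8.91% in Gel became 17.5% and 16.1% in CuNZ@Gel, and relative to the rest it was higher by 1.15 (adjusted p = 0.000428), or by 0.71 on trend-removed values (adjusted p = 0.0116). Region 1 was weak, with at most 1.3 RPM in any library, and region 5, with 2, 12, 5 and 3 reads, failed the filter on low values.

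Srebf1 encodes the factor that drives fatty acid synthesis and is itself an LXR target. Its sum was 124 and 127 RPM in Gel and 113 and 111 RPM in CuNZ@Gel, a change of -0.16 ± 0.06 (adjusted p = 0.018). The call was lost without Gel replicate 1 (-0.19, adjusted p = 0.0625) or Gel replicate 2 (-0.14, adjusted p = 0.168), and with the trend removed the sum was higher by 0.26 (adjusted p = 0.000794). Region 1 (chr11:60101109-60101836) stood level, at 41.8, 43.3, 41.7 and 44 RPM (0.01, adjusted p = 0.942). Of all regions in its level class 86.9% were lower, and trend removal put it higher by 0.47 (adjusted p = 2.98e-05).

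Srebf1 region 2 (chr11:60110643-60111882) had 32.9 and 36.7 RPM in Gel and 27.3 and 24.4 RPM in CuNZ@Gel (-0.41 ± 0.11, adjusted p = 0.00167) and was -0.06 with the trend removed. Without Gel replicate 2 it was -0.34 and not called. Region 3 (chr11:60113295-60114063) had 46.6, 45.6, 38.6 and 39.3 RPM (-0.24 ± 0.09, adjusted p = 0.0366) and lost its call when any library but CuNZ@Gel replicate 2 was left out. Region 4 (chr11:60126361-60126966) had few reads, 40 and 30 in Gel and 43 and 37 in CuNZ@Gel, which came to 2.33, 1.86, 5.22 and 3.29 RPM. It rose by 0.74 ± 0.26 (adjusted p = 0.0161), yet the authors listed a peak there in the Gel libraries alone (folds 4.99 and 5.61). The call was lost without Gel replicate 2 (0.63) or CuNZ@Gel replicate 1 (0.47) and with the trend removed (0.56, adjusted p = 0.0835), and the change was -0.05 on the background scale. Relative to the rest of the gene it was 1.04 (adjusted p = 0.0249, and 0.0535 with the spread modelled on the ratio), and 0.39 on trend-removed values (adjusted p = 0.384).

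Srebf2 encodes the sterol-sensing factor of cholesterol synthesis and uptake. Its sum was 127 and 124 RPM in Gel and 92.3 and 94.8 RPM in CuNZ@Gel (-0.42 ± 0.06, adjusted p = 4.88e-06) and was 0.07 with the trend removed (adjusted p = 0.394). Most of it was region 2 (chr15:82030861-82031803), with 97.8 and 96.9 RPM in Gel and 67.5 and 67.3 RPM in CuNZ@Gel (-0.52 ± 0.07, adjusted p = 4.91e-08). Trend removal put region 2 at 0.15, not called. Against the rest of the gene it was -0.42 (adjusted p = 0.0236, and 0.171 with the spread modelled on the ratio), and on trend-removed values 0.33 (adjusted p = 0.0775). Region 5 (chr15:82049446-82049911) had 7.82, 6.93, 4.73 and 5.15 RPM (-0.49 ± 0.20, adjusted p = 0.0405), with authors' peaks in the Gel libraries alone (folds 11.1 and 10.5). It was -0.58 after trend removal (adjusted p = 0.0183) and lost its call without Gel replicate 1 (-0.42), Gel replicate 2 (-0.57) or CuNZ@Gel replicate 1 (-0.44). Region 4 (chr15:82047479-82048448), at 6.01 and 6.5 RPM in Gel and 7.28 and 8.44 RPM in CuNZ@Gel, was not called on its own (0.29, adjusted p = 0.236) and was higher relative to the rest of the gene (0.78, adjusted p = 0.0156). That relative call was lost on trend-removed values (0.18, adjusted p = 0.581). Regions 1 and 3 overlapped between groups.

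**Figure D5:**
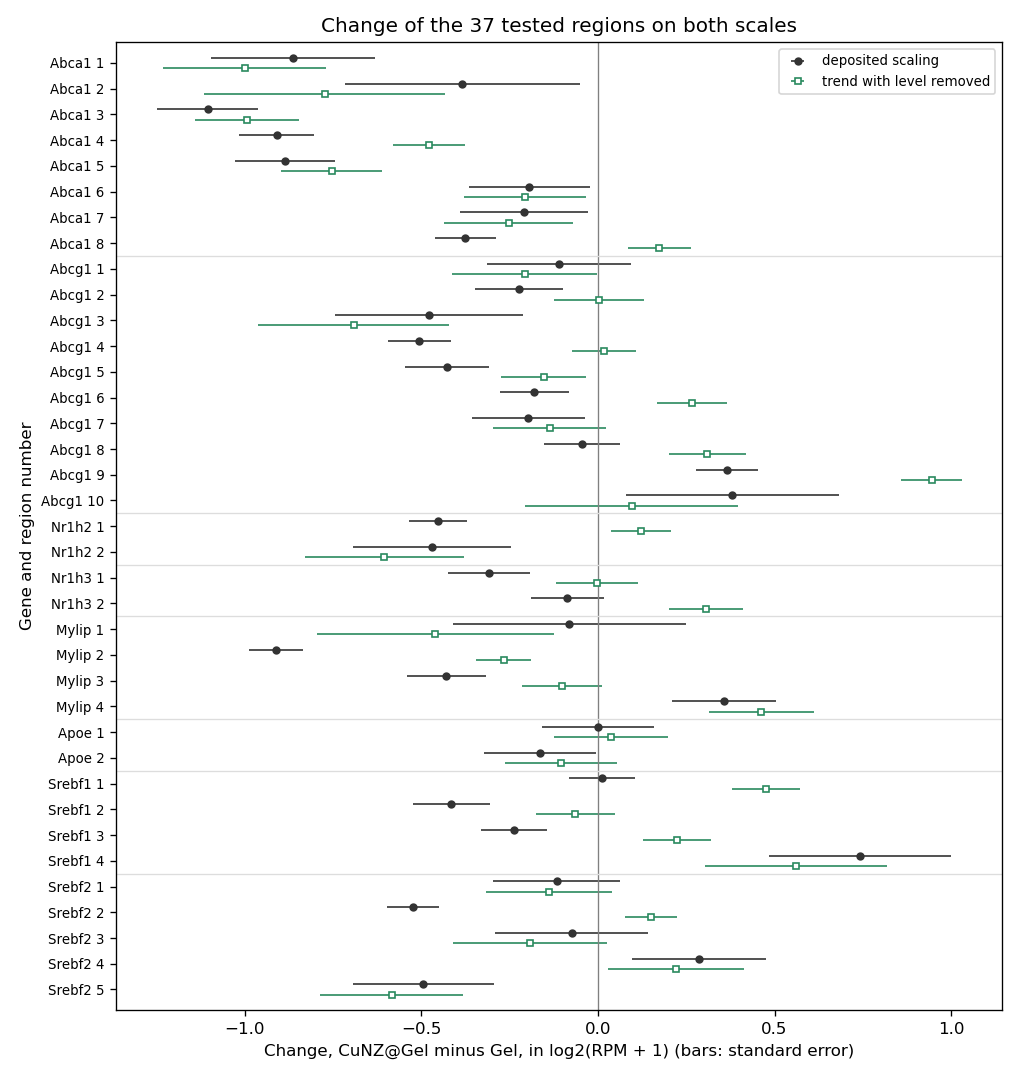
Change in log2(RPM + 1), CuNZ@Gel minus Gel (x axis), of the 37 tested regions (y axis, gene and region number), on the deposited scale (filled) and with the trend with level removed (open); bars are standard errors. Abca1 regions 3 to 5 stay below 0 on both scales and Abcg1 region 9 stays above 0.

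The authors called peaks on each library alone, so the presence of a peak depends on depth. The 38 regions had a peak in 32, 36, 26 and 30 cases in Gel 1, Gel 2, CuNZ@Gel 1 and CuNZ@Gel 2. A peak in all 4 libraries was listed for 25 regions (65.8%, against 39.6% of all regions) and in both Gel libraries alone for 3 (7.89%, against 11% of all regions), namely Abca1 region 3, Srebf1 region 4 and Srebf2 region 5. Peaks in both CuNZ@Gel libraries alone were listed for 0 of the 38, against 2.28% of all regions. With peaks at a -log10 q of at least 5, all 4 libraries had one in 22 regions (57.9%, against 33.3% of all regions). Of the tested member regions 10 lay in level class 10 and 7 in class 9, and the part of level in these shares was not tested.

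Levels of the gene sums depend on how many regions the authors named by a gene, so their order is a description. In Gel it ran Abcg1, Abca1, Mylip, Srebf2, Srebf1, Nr1h2, Nr1h3 and Apoe, where Srebf2 (126 ± 2.59) and Srebf1 (125 ± 2.64) did not differ beyond their SD. In CuNZ@Gel Srebf1 (112 ± 1.28) stood near Abca1 (116 ± 0.994), and Mylip (95.2 ± 0.553) near Srebf2 (93.5 ± 1.79). The gene whose 4 values ran closest to each member, by distance between mean-centred log2 values over the 4 libraries among 15839 genes, was Myl6 for Abca1 (0.0112), Ehd4 for Abcg1 (0.0089) and Neil1 for Nr1h2 (0.0093). For the others it was Plcg2 for Nr1h3 (0.0155), Tfe3 for Mylip (0.0103), Rrp1b for Apoe (0.0135), Enpp4 for Srebf1 (0.0122) and Nup54 for Srebf2 (0.0096). With 4 values per gene and 15839 genes to choose from, a close match is easily found, so these names show no link to the members.

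Other genes of the pathway, taken from lists, are given by gene sums, for which 20.5% of all genes were higher and 36.1% lower on the deposited scale (median -0.10), and 20.7% and 15.4% after trend removal (median -0.02). Of 12 LXR partners and coregulators, 2 rose, 7 fell and 3 were not called (median -0.26), and after trend removal 2 were higher and 2 lower (median -0.02). The receptor partners Rxra (67 ± 1.3 to 85.2 ± 7.99 RPM) and Rxrg rose by 0.34 and 0.36, and the corepressor genes Tbl1x and Ncor1 fell by 0.70 and 0.58. After trend removal Rxra stayed higher (0.43) and Tbl1x lower (-0.43), while Rxrg (0.23, adjusted p = 0.0812) and Ncor1 (-0.16, adjusted p = 0.13) lost their calls. Rxrg lost its call also without CuNZ@Gel replicate 1 (0.28), and on the background scale Rxra and Rxrg were lower (-0.71 and -0.67). Of 15 other LXR targets with a region (Abcg5 had none), 3 rose and 4 fell (median -0.03), and after trend removal 2 were higher and 1 lower (median 0.01). Scd1, a fatty acid desaturase, rose by 0.30 and Smpdl3a, a phosphodiesterase, by 0.55, while fatty acid synthase Fasn and the lipid transfer protein Pltp fell by 0.64 and 0.62. Scd1 at 0.60 and Pltp at -0.20 kept their calls with the trend removed, and Fasn at 0.11 and Smpdl3a at 0.46 (adjusted p = 0.0887) did not. Smpdl3a lost its call also without Gel replicate 2 (0.34) or CuNZ@Gel replicate 1 (0.45).

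Of 12 genes for efflux, storage and oxysterols (Lcat had no region), 2 rose and 6 fell (median -0.13), and after trend removal the balance turned to 5 higher and 1 lower (median 0.13). Apoa1, the acceptor for ABCA1 made mainly by liver and gut, rose by 0.74, and Ch25h, which makes 25-hydroxycholesterol, by 0.34. The oxysterol-binding protein gene Osbp fell by 0.96 and the lysosomal exporter gene Npc1 by 0.46, and with the trend removed Osbp was -0.20 and Npc1 0.02, the latter not called. Apoa1 (0.79) and Ch25h (0.28) kept their calls. In the list of SREBP processing genes and lipoprotein receptors, Vldlr had no region. The protease gene Mbtps1 and the retention factor gene Insig1 fell by 0.71 and 0.63, and both lost the call with the trend removed (-0.27 and 0.06). On the background scale Apoa1 was -0.30 and Smpdl3a -0.35, neither of them called, and Scd1 (-0.74) and Ch25h (-0.70) were lower.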

How the data were processed

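The authors deposited, for each library, log2 values for 80929 regions with a gene name each. They were read as log2(RPM + 1): once the logarithm was reversed, 100% of low values came within 0.1 of whole reads. Per the submitters' processing notes, the tools included MACS2 2.2.8, Picard 2.27.5, Bowtie2 2.3.4.3, fastp 0.23.1 and SAMtools 1.17, on GRCm39, in roles the notes do not state. The peak lists deposited for each library give, per peak, a fold enrichment (a ratio), -log10 p-value, -log10 q-value and score. Merging these lists with bedtools 2.31.1 gave the 80929 regions and their coordinates, counted from 1. In the RefSeq gene table, 77097 of 77099 regions lay on the chromosome of their gene.

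A region was tested if 2 or more libraries reached 0.710 reads per 1000000 (10 reads at median depth) and all 4 together 15 reads. The test was limma 3.58.1, two-sided, with an intensity trend, in R 4.3.3. A gene value is log2(summed RPM + 1). The script was tested on simulated data with few changed regions and no trend of change with level, so that test does not cover the trend seen here. The labels do not state that same-numbered libraries are pairs, so the numbers were not used as pairs. Deviations of the replicates numbered 1 from their group means had r = 0.0163 over 77014 regions. Weak regions were included, so this value cannot settle whether the libraries were paired. The trend with level was removed by cyclic loess on the region values, from which gene values were summed. A first version on the gene sums themselves was replaced after its counts over all genes had been seen, and is kept as an alternative. The measure of a region against the rest of its gene was added after the data had been seen; the text gives the order in which its 2 versions were run. The members and gene lists were chosen with earlier results of these data known. Named are all members and, in each list, up to 2 called genes with the largest rise and 2 with the largest fall, genes without a region, and 1 gene of most like pattern per member. The result of 1 gene of these lists, and the count of its list, are not reported here.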

Additional observations from a re-analysis of the deposited data

How the results depend on the processing

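The calls of Abca1, of Abca1 regions 3, 4 and 5 and of Mylip region 2 held under every alternative run, and that of Abcg1 region 9 under 15 of 16. No filter and pseudocounts of 0.25 and 4 left every count at its main value. The counts by setting are given as member genes higher and lower, then member regions higher and lower, then genes of the 4 pathway lists higher and lower, from 0 and 6, 3 and 15, and 8 and 22 on the deposited scale. With the trend removed these were 2 and 1, 6 and 8, and 11 and 5. With quantile normalization they were 2 and 2, 5 and 8, and 9 and 5. Scaled to totals of reads in regions they were 1 and 3, 5 and 7, and 16 and 11. On the background scale they were 0 and 8, 0 and 34, and 0 and 43. With median-of-ratios factors they were 0 and 5, 3 and 14, and 8 and 22. With a stricter filter (30 reads at median depth) they were 0 and 7, 3 and 15, and 8 and 22. Nr1h3 was then called lower (-0.19, limma adjusted p = 0.0492). With the trend removed on gene sums, an alternative added after seeing the data, gene counts were 2 and 2, and pathway counts 15 and 9. With the mean log2 over regions gene counts were 0 and 2, and pathway counts 9 and 8. With the strongest region of each gene they were 1 and 4, and 4 and 26. The numbers are not paired by the labels; the replicate block gave 0 and 7, 3 and 15, and 9 and 23, with Nr1h3 gaining a call (-0.19, adjusted p = 0.0282) and no other member call changing. The replicate block with the trend removed gave 2 and 2, 6 and 8, and 12 and 6. Leaving out 1 library gave 4 to 7 genes lower, 1 to 3 regions higher, 11 to 16 regions lower, 6 to 9 pathway genes higher and 19 to 21 lower. Values that changed sign are listed by setting, with numbers after a gene for its region; the cause was not tested. With the trend removed, with or without the replicate block, they were Abcg1 0.29, Nr1h2 0.06, Nr1h3 0.17, Srebf1 0.26, Srebf2 0.07, Fasn 0.11, Npc1 0.02, Insig1 0.06 and Nr1h3 2 0.31. Further such values were Abca1 8 0.17, Apoe 1 0.04, Nr1h2 1 0.12, Srebf1 3 0.22, Srebf2 2 0.15, Abcg1 2 0.00, Abcg1 4 0.02, Abcg1 6 0.27 and Abcg1 8 0.31. With the trend removed, changes relative to the rest of the gene that turned were Abca1 2 -0.74, Mylip 1 -0.48, Srebf2 1 -0.23, Srebf2 2 0.33, Srebf2 3 -0.30, Abcg1 1 -0.52 and Abcg1 10 -0.17. On gene sums the trend removal turned Abcg1 0.35, Nr1h3 0.16, Apoe 0.01 and Srebf1 0.26. Quantile normalization turned Abcg1 0.26, Nr1h2 0.04, Nr1h3 0.15, Srebf1 0.24, Srebf2 0.02, Fasn 0.05, Nr1h3 2 0.29, Abca1 8 0.17 and Nr1h2 1 0.11. Further such values were Srebf1 3 0.21, Srebf2 2 0.12, Abcg1 4 0.00, Abcg1 6 0.26 and Abcg1 8 0.29. Totals of reads in regions turned Abcg1 0.16, Nr1h3 0.09, Apoe 0.19, Srebf1 0.12, Nr1h3 2 0.19, Abca1 6 0.06, Abca1 7 0.04, Apoe 1 0.26 and Apoe 2 0.10. Further such values were Srebf1 3 0.04, Mylip 1 0.05, Srebf2 1 0.14, Srebf2 3 0.16, Abcg1 1 0.13, Abcg1 2 0.05, Abcg1 6 0.10, Abcg1 7 0.07 and Abcg1 8 0.23. The background scale turned Rxra -0.71, Rxrg -0.67, Scd1 -0.74, Smpdl3a -0.35, Ch25h -0.70, Apoa1 -0.30, Srebf1 1 -1.02, Srebf1 4 -0.05 and Mylip 4 -0.63. Further such values were Srebf2 4 -0.64, Abcg1 9 -0.68 and Abcg1 10 -0.25. The mean log2 over regions turned Srebf1 0.03, Tbl1x 0.02, Ncor1 0.23 and Insig1 0.30. The strongest region alone turned Abcg1 0.37 and Srebf1 0.01. Apoe region 1, at 0.00, crossed 0 also with median-of-ratios factors (0.01), a pseudocount of 4 (0.00) and voom (0.02). Leaving out 1 library turned these, none of them called, over the ranges Apoe 1 -0.10 to 0.10, Srebf1 1 -0.03 to 0.05, Mylip 1 -0.30 to 0.14, Srebf2 1 -0.34 to 0.10, Srebf2 3 -0.27 to 0.12, Abcg1 1 -0.24 to 0.02, Abcg1 7 -0.40 to 0.00. The relative measure lost 6 of 9 calls, and gained 0, with the spread modelled on the ratio. A planned edgeR test on the recovered reads was not run; voom on those reads was run and gave 0 and 6, 3 and 14, and 8 and 23. Depth limits the weak regions: Srebf1 region 4 rested on 30 to 43 reads per library.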
